A study of Mus musculus with 6 samples.

Results

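Peg3, H19, Igf2, Dlk1, Mest, Plagl1, Cdkn1c, Grb10, Igf2r and Meg3 are 10 genes of the imprinted growth network, a set of genes that are read from the maternal or the paternal copy only and that control growth before and around birth. The group was put together around Peg3, and it was chosen by the difference between LIGHT Tg and WT livers in which Peg3 had stood out, so that the question is whether Peg3 was high alone or together with other imprinted genes. Every probe set annotated to a single symbol of the group was taken. This gave 30 probe sets of 9 genes, out of 18193 genes with a named probe set and 45037 non-control probe sets in all. H19 had no probe set of its own, because the only probe set annotated to it is shared with Mir675, the microRNA gene inside it.

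There were 3 liver samples of mice carrying a LIGHT transgene (LIGHT Tg 1 to 3) and 3 of B6 mice (WT 1 to 3). LIGHT, a cytokine of the TNF family, is the product of Tnfsf14. All mice had 2 weeks of the high-fat diet TD88137 and were 4 to 8 weeks old, and RNA of the total liver was put on 1 Affymetrix array per sample. No strain is labelled for the LIGHT Tg mice, so genetic background and transgene cannot be told apart. The labels name no promoter for the transgene. The brighter probe set of Tnfsf14 had signals of 55.7, 19.3 and 26.7 in LIGHT Tg and of 7.7, 11.8 and 7.43 in WT, and the other 2.3, 3.10 and 5.6 in LIGHT Tg and 4.25, 3.75 and 7.83 in WT. All are dim, so the level of the transgene in liver is not settled by them. The groups follow the source names and titles. The free-text descriptions speak of wild-type mice for all 6 samples. Nothing in the labels says that samples are separate animals, so the spread between samples may be technical in part.

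The title numbers form a pair, 77 (LIGHT Tg 1) and 78 (WT 1), and a set of 4, 34 and 35 (LIGHT Tg 2 and 3) and 30 and 31 (WT 2 and 3). What the numbers stand for is not in the labels. The pair stands apart from the other 4 arrays. Its brightest Xist signals were 406.6 on LIGHT Tg 1 and 444.0 on WT 1, against 7993 to 9714 on the other arrays. Xist is the RNA that silences an X chromosome in female cells. Differences are therefore given within each set too, and with the set as a block. Signals summed to between 30980000 and 32710000 per array. The 7 hepatocyte markers were bright on every array, with summed signals of 121770 to 131767 in LIGHT Tg and 124535 to 130154 in WT.

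The expression of a copy of an imprinted gene depends on the parent it came from, often through DNA methylation laid down in the egg or sperm. Many of these genes are strongly expressed in the fetus and are turned down together in several organs after birth, the liver among them. Peg3 encodes a large zinc finger protein, Plagl1 a zinc finger transcription factor that binds several other genes of the network, Igf2 a fetal growth factor, Igf2r the receptor that clears it, Dlk1 a membrane protein of progenitor cells, Cdkn1c a cyclin-dependent kinase inhibitor, Grb10 an adaptor that dampens insulin and IGF receptor signalling, Mest a protein with an alpha/beta hydrolase fold, and H19 and Meg3 long non-coding RNAs.

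The promoter of Peg3 is shown because Peg3 carries the difference, and because a motif of Plagl1, another member, can be looked for in it. The window runs from 250 bases before to 50 bases after the gene start in RefSeq (GRCm38.p6, chr7:6730370-6730669, minus strand). The capitals mark the match to the Plagl1 motif.

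Peg3 promoter: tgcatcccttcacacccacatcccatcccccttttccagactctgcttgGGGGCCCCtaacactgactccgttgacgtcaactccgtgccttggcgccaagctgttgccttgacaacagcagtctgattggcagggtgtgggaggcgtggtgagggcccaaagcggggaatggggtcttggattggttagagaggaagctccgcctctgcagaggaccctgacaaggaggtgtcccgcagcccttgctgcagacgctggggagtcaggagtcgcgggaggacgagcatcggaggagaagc

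The letters GGGGCCCC, which read the same on both strands, begin at base 50 of the window, 201 bases before the gene start. They occur in 1.08% of all 32851 promoter windows of this length, and in 1 of the 15 windows of the 8 members that have any, the one of Peg3. The YY1 motif GCCATNTT, searched on both strands, is in 6.05% of all windows and in none of the 15. The window holds 13 CpG sites and 61.3% G and C. It overlaps by 263 bases the window of Usp29, the gene that starts next to Peg3 on the opposite strand and is also imprinted. A match is a run of letters and not a measured site. Cdkn1c and H19 have no window in the table used.

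In bulk liver RNA, a change in the number of cells that express a gene and a change in its RNA per cell cannot be told apart. Peg3 signal was many times higher in LIGHT Tg livers than in WT livers at 3 of its 5 probe sets. At the brightest, 1433924_at, the signals were 4996, 7972 and 6971 in LIGHT Tg 1 to 3, and 238.8, 517.9 and 522.2 in WT 1 to 3. The lowest LIGHT Tg signal lay far above the highest WT signal. The difference was 4.02 ± 0.341 on the log2 scale (SE, n = 3 per group), a 16.3-fold level.

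The next probe set, 1417355_at, had signals of 3846, 4679 and 4859 in LIGHT Tg and of 351.9, 241.0 and 380.5 in WT. The log2 difference was 3.80 ± 0.219, or 13.9-fold. At 1417356_at the signals were 1264, 1898 and 2007 in LIGHT Tg and 24.96, 27.8 and 34.1 in WT. Here too the groups were wide apart, with a log2 difference of 5.88 ± 0.279. All 3 WT signals of 1417356_at were below the level filter of 167.4, so that this probe set was tested only through its LIGHT Tg signals, and the size of its fold change rests on low WT values. With an offset of 37.5 added before log2 its difference was 4.70. The 3 probe sets followed each other over the 6 arrays, with Pearson correlations between 0.970 and 0.995, a description of arrays that share the genotype difference.

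The remaining Peg3 probe sets did not follow. At 1447731_at the signals were 55.9, 23.6 and 8.9 in LIGHT Tg, against 120.1, 31.4 and 41.2 in WT, a log2 difference of -1.24 ± 0.833. At 1447732_x_at they were 9.34, 82.5 and 11.2 in LIGHT Tg, against 18.8, 7.37 and 7.17 in WT, a difference of 1.04 ± 0.930. Both were below the level filter, and the groups overlapped. The positions of the probes in the Peg3 transcript were not analysed here, and the disagreement between probe sets was not resolved.

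**Figure D1:**
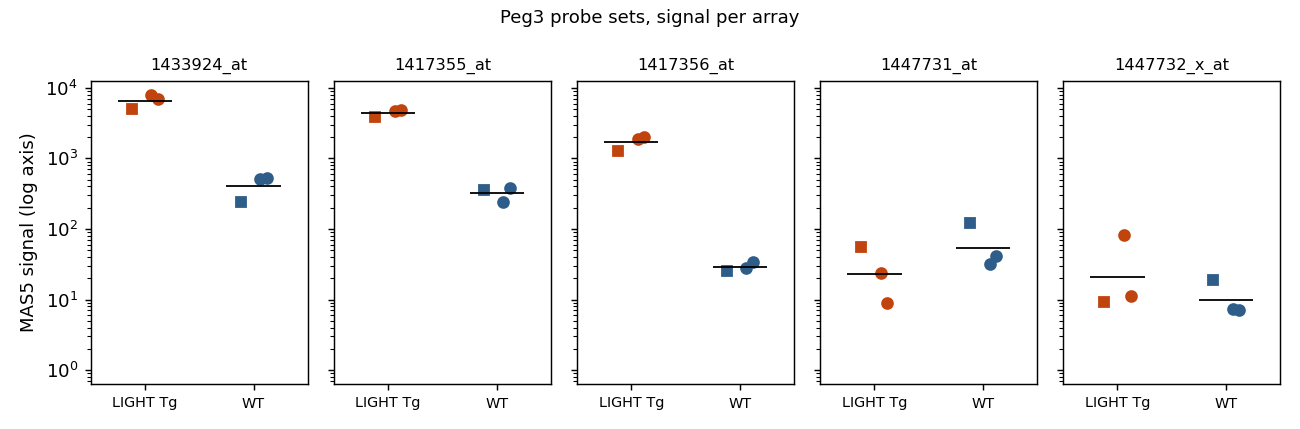
MAS5 signal (log axis) of the 5 Peg3 probe sets in LIGHT Tg and WT livers, 1 point per array, with squares for the arrays titled 77 and 78 and lines at the mean of the log2 values. The groups are wide apart at 3 probe sets and overlap at 1447731_at and 1447732_x_at.

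Igf2 and the IGF receptor Igf2r gave no comparable difference. The brighter Igf2 probe set had signals of 56.5, 89.2 and 109.6 in LIGHT Tg and of 93.2, 30.3 and 90.5 in WT, a log2 difference of 0.37 ± 0.578, and the other had -0.17 ± 0.410. Both Igf2 probe sets were below the level filter in these livers. The brighter Igf2r probe set had signals of 887.5, 1561 and 1560 in LIGHT Tg, against 825.1, 1087 and 1232 in WT, with overlap and a difference of 0.32 ± 0.276. At the other the signals were 838.0, 733.4 and 658.8 in LIGHT Tg and 644.3, 574.8 and 598.5 in WT, a difference of 0.29 ± 0.172. There the lowest LIGHT Tg signal was just above the highest WT signal.

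At their brightest probe sets, Plagl1 and Dlk1 were higher on the array of the pair than on the other arrays of the same genotype. The brightest Plagl1 probe set had signals of 836.7, 647.8 and 502.9 in LIGHT Tg and of 824.6, 513.2 and 362.2 in WT, a log2 difference of 0.28 ± 0.337. Its other probe sets had 0.09 ± 0.253 and -0.76 ± 0.717. Dlk1 had signals of 313.5, 128.9 and 149.6 in LIGHT Tg and of 222.0, 154.3 and 171.7 in WT at its brighter probe set, a difference of 0.01 ± 0.391. On that probe set LIGHT Tg 1 was the highest array and LIGHT Tg 2 the lowest, so the spread within LIGHT Tg exceeded any difference from WT. The dimmer Dlk1 probe set had -0.19 ± 0.710.

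The growth inhibitors Cdkn1c and Grb10 leaned higher in LIGHT Tg within the spread of the arrays. The only Cdkn1c probe set had signals of 68.5, 160.0 and 149.1 in LIGHT Tg and of 47.0, 95.5 and 89.1 in WT. Its difference was 0.68 ± 0.505, at signals below the level filter. In each genotype the array of the pair was lowest, and within the sets the differences were 0.54 and 0.74. The brightest Grb10 probe set had signals of 560.1, 491.3 and 642.2 in LIGHT Tg, against 338.6, 499.8 and 506.8 in WT, a difference of 0.35 ± 0.228. Without WT 1, the lowest of these arrays, it was 0.16. The other Grb10 probe sets had 0.11 ± 0.311 and 0.05 ± 0.337.

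Mest had signals of 439.4, 593.8 and 676.2 in LIGHT Tg and of 373.5, 513.7 and 573.3 in WT, a difference of 0.23 ± 0.250 at its only probe set. The groups overlapped. The probe set annotated to both H19 and Mir675, from which no gene is named, had signals of 173.7, 89.0 and 106.3 in LIGHT Tg, against 84.9, 109.7 and 123.3 in WT. Its groups overlapped as well.

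Meg3, with 11 probe sets, pointed in both directions. Of these 7 had positive and 4 negative log2 differences, from -2.29 to 0.88. The brightest had signals of 430.0, 538.7 and 542.3 in LIGHT Tg and of 294.9, 446.2 and 417.3 in WT, a difference of 0.40 ± 0.228 with overlapping groups. The lowest value came from 1436713_s_at, with signals of 21.4, 4 and 8.4 in LIGHT Tg and of 74.1, 27.0 and 42.3 in WT. All LIGHT Tg values were below all WT values there, at a level in percentile 11.0 of all probe sets, and with the offset before log2 the difference was -0.78. Groups were also apart at 1436057_at, with a difference of -0.42 ± 0.325, and at 1452906_at, with 0.50 ± 0.462. Both are dim, and their directions are opposite.

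**Figure D2:**
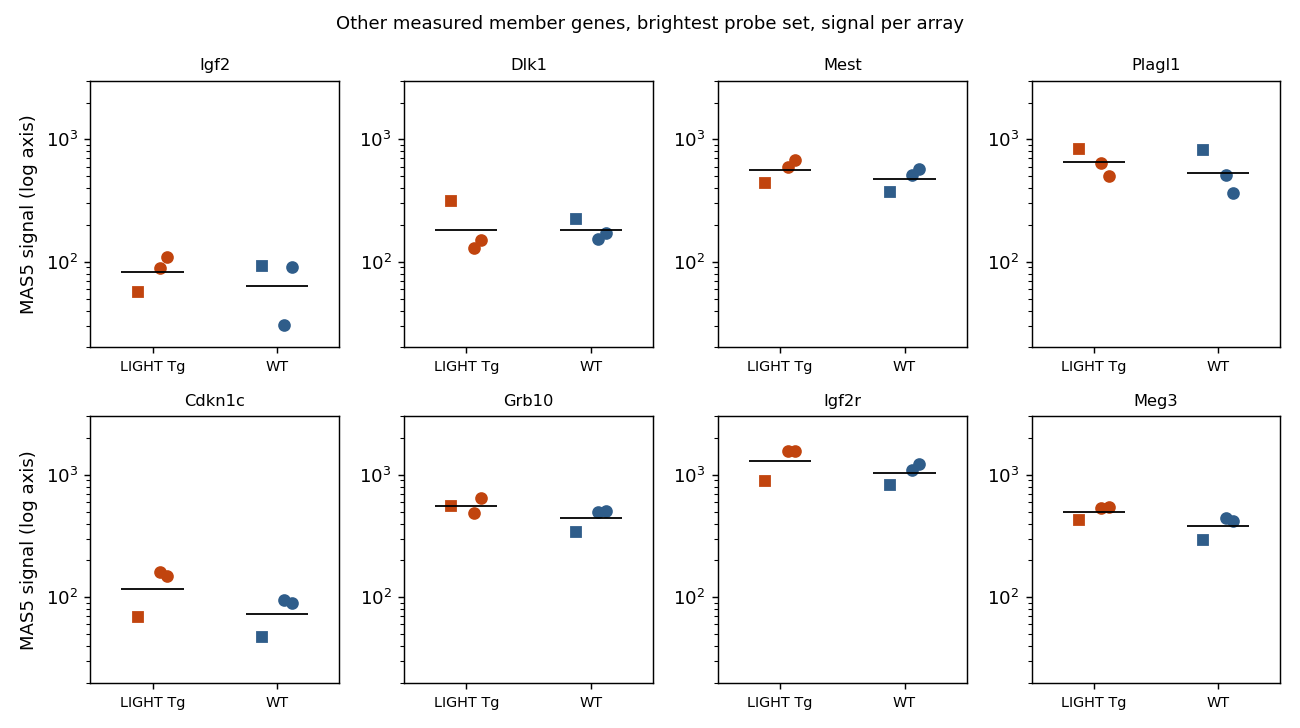
MAS5 signal (log axis) of the other 8 measured members, brightest probe set of each, in LIGHT Tg and WT livers, with squares for the arrays titled 77 and 78 and lines at the mean of the log2 values. In every panel the ranges of the genotypes overlap.

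Counted over the group, 17 of the 30 probe sets were past the level filter and 13 below it. In the limma fit 3 were past 5% FDR, all of them Peg3 and all higher in LIGHT Tg, and 14 were not. Of all 22519 probe sets tested 1.17% were past that threshold, and 0.715% were past it and higher. Since this comparison chose the group, nothing is read from the count. Of the 25 probe sets of the other 8 genes none was past 5% FDR in the limma fit over all non-control probe sets, with or without the title-set block. Unadjusted p was below 0.05 for 1 of them without the block and for 4 with it. It was below 0.05 for 1375 of the 11563 genes past the level filter, in limma without the block. The share over all genes with the block is not given here, and nothing is read from these counts. Groups did not overlap for 7 of the 30 probe sets, 3 of Peg3 and 4 of other genes (2 higher and 2 lower), while 13.7% of all non-control probe sets had groups that did not overlap.

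Among the brightest probe sets of the other 8 genes the log2 differences lay between 0.01 (Dlk1) and 0.68 (Cdkn1c). All 8 were positive, with a median of 0.34, beside a median of 0.00 over 18193 genes. The signs rest on single arrays for 3 of them, since Dlk1 had -0.38 without LIGHT Tg 1, Igf2 -0.16 without WT 2 and Plagl1 -0.0048 without WT 3, and Mest had 0.05 without WT 1. The median was 0.17 when all probe sets of a gene were averaged over the 9 genes, against 0.35 with the brightest, and of the 25 probe sets 18 were positive and 7 negative. The highest upper limit of a 95% interval among these 8 probe sets was 1.85, for Cdkn1c, and the lower limit for the brightest Peg3 probe set was 3.22. Because the group was put together around Peg3 from this contrast, the gap between these limits is a description and no test. For Igf2 and Cdkn1c, below the level filter, such an interval describes the dim signal and bounds no change in RNA. Small rises of the other members could not be told from no change with 3 arrays per group. In simulated data the steps recovered 0.225% of log2 changes of 1 and 55.7% of log2 changes of 2. A missing call therefore says little about a log2 change of 1.

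**Figure D3:**
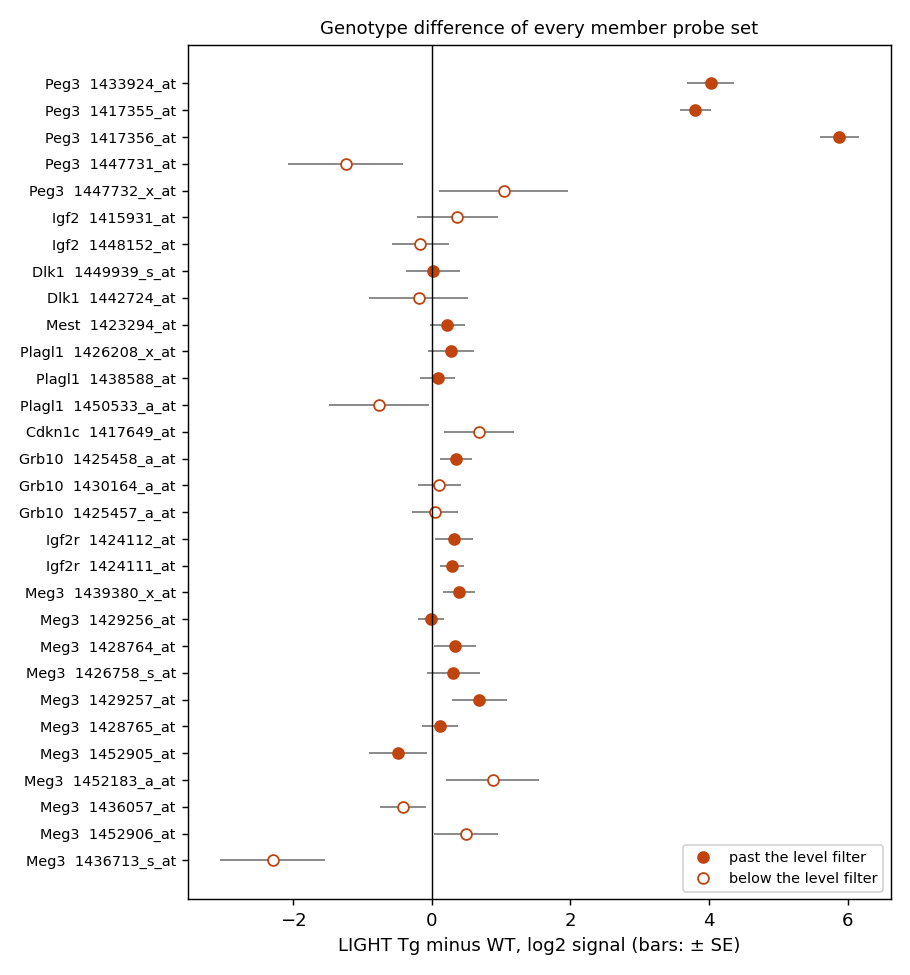
LIGHT Tg minus WT difference in log2 signal for each of the 30 member probe sets, with bars of ± SE, filled points past the level filter and open points below it. The 3 Peg3 probe sets past the filter lie between 3.80 and 5.88, and every other probe set lies between -2.29 and 1.04.

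Peg3 was higher in LIGHT Tg within both sets of titles. In the pair, 1 array against 1, the log2 differences of its 3 bright probe sets were 4.39, 3.45 and 5.66, and in the arrays titled 30 to 35, 2 against 2, they were 3.84, 3.98 and 5.98. The genotype differences of the members were also compared between the sets with an interaction term in limma. Relative to its SE, this term was largest for Meg3 at 1452183_a_at (-3.15) and for the brightest Peg3 probe set (0.55, a larger difference in the pair). Of the 30 probe sets none passed 5% FDR, while 0.00666% of all 45037 probe sets did. An unadjusted p below 0.05 was found for 2 of the 30, against 10.6% of all probe sets, in a design with 1 array per genotype in the pair.

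Between the sets themselves, a comparison that did not choose the group, 4 member probe sets passed 5% FDR in limma with genotype in the model (13.3% of 30, against 16.3% of all 45037 probe sets). The share was near the background. The brightest Peg3 probe set was lower in the pair than in the arrays titled 30 to 35 by a log2 difference of -0.85 ± 0.147 (limma adjusted p = 0.0138), and its level was lower in the pair in both genotypes. The other bright Peg3 probe sets had -0.05 ± 0.209 and -0.47 ± 0.216 (limma adjusted p = 0.897 and 0.177). Mest had -0.53 ± 0.142 (limma adjusted p = 0.0465) and the brighter Igf2r probe set -0.65 ± 0.126 (limma adjusted p = 0.0185). Meg3 had 0.67 ± 0.183 at 1428764_at (limma adjusted p = 0.0492). The other Igf2r probe set had 0.20 ± 0.127 and the brightest Meg3 probe set -0.44 ± 0.147 (limma adjusted p = 0.301 and 0.0848). Igf2r and Meg3 thus had probe sets in both directions. With quantile normalization the count was 2, of Peg3 and Igf2r.

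**Figure D4:**
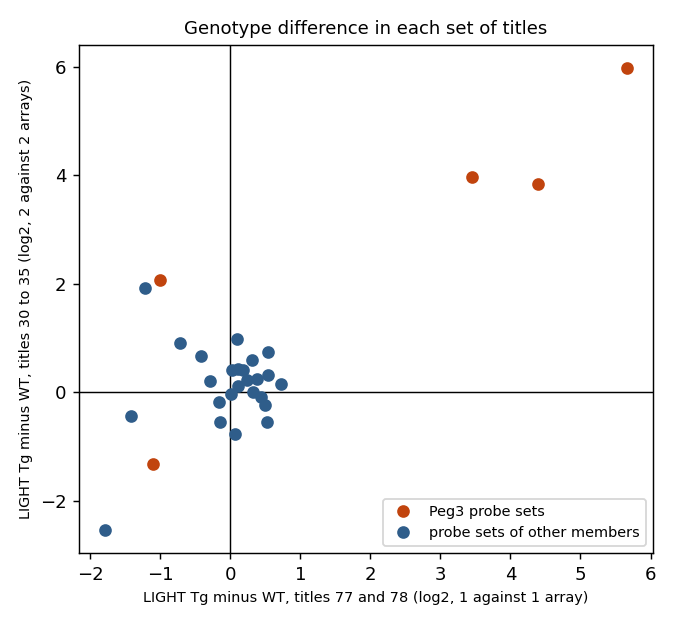
LIGHT Tg minus WT log2 difference of the 30 member probe sets in the pair titled 77 and 78 (x axis, 1 against 1 array) and in the arrays titled 30 to 35 (y axis, 2 against 2 arrays). The 3 bright Peg3 probe sets stand alone at the upper right.

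No measured neighbour of Peg3 passed the test. Usp29, whose promoter window overlaps that of Peg3, had signals of 229.0, 137.9 and 155.9 in LIGHT Tg and of 279.4, 126.4 and 102.8 in WT at its brighter probe set, a log2 difference of 0.15 at signals below the level filter. Its dimmer probe set had 101.3, 89.0 and 22.4 in LIGHT Tg against 19.8, 22.7 and 19.9 in WT, with a difference of 1.499, also below the filter and with LIGHT Tg 3 within the WT range. The zinc finger genes Zim1, Zim2 and Zim3, which lie in the same imprinted cluster, had differences of 0.29, 0.54 and -0.16. Only Zim3 was past the filter (limma adjusted p = 0.940). Likewise not past the threshold were Rian and Mirg, non-coding RNAs of the cluster that holds Dlk1 and Meg3, with 0.08 ± 0.263 and 0.04 ± 0.507 at their brightest probe sets (limma adjusted p = 0.973 and 0.995).

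Other genes known to be imprinted in at least some mouse tissue moved in both directions. The list held 78 such genes outside the group, of which 63 were measured and 41 had a probe set past the filter. In limma 2 of the 41 rose, 2 fell and 37 did not pass, which is 9.76% called, against 1.36% of 11563 genes tested in the same way. With the title-set block 6 rose and 2 fell, or 19.5%, against 7.15% of all genes. Whether this share exceeds what lists of liver genes show was not tested. The list was drawn up with earlier results of these data known, so its share is a description. The median difference of the 63 was 0.12, and 41 were positive and 22 negative.

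Among the brightest probe sets of these genes, Slc22a2, an organic cation transporter in the cluster of Igf2r, had the largest difference. Its signals were 1379, 1599 and 1355 in LIGHT Tg and 243.4, 211.4 and 167.1 in WT, with no overlap. It rose by 2.81 ± 0.204 on the log2 scale, or 7.03-fold (limma adjusted p = 0.00200), while Igf2r in the same cluster had the small differences given above. Qpct, which makes the pyroglutamate end of secreted peptides, rose by 1.56 ± 0.214 (limma adjusted p = 0.0236), with signals of 866.2, 1378 and 1107 in LIGHT Tg and of 357.5, 403.5 and 358.4 in WT.

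Slc38a4, a neutral amino acid transporter of hepatocytes, was lower in LIGHT Tg. Its signals were 5935, 4664 and 3979 in LIGHT Tg against 15472, 12963 and 11497 in WT, and it fell by 1.46 ± 0.182 on the log2 scale (limma adjusted p = 0.0177). Its other probe set fell by 1.81. Cobl, an actin nucleator, fell by 1.45 ± 0.245 (limma adjusted p = 0.0469), and its dimmer probe set had 0.06, below the filter. Slc22a2 passed whichever array was left out. Qpct, Slc38a4 and Cobl each lost the call without LIGHT Tg 2, LIGHT Tg 3, WT 2 or WT 3, and Cobl also lost it without WT 1, with no level filter and with no trend. Their limma adjusted p then reached 0.134 for Qpct, 0.0965 for Slc38a4 and 0.207 for Cobl.

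With the title-set block 4 more genes passed, all higher in LIGHT Tg. The potassium channel gene Kcnq1 had signals of 246.8, 317.7 and 236.3 in LIGHT Tg and of 146.6, 92.6 and 90.0 in WT, a difference of 1.31 ± 0.310 (limma adjusted p = 0.130, and 0.0338 with the block). Its WT signals were all below the level filter, so that it was tested only through its LIGHT Tg signals. The others were the tetraspanin Cd81 with 0.49 ± 0.139 (0.208, and 0.0360 with the block), the sarcoglycan Sgce with 0.92 ± 0.197 (0.0969, and 0.0243 with the block) and the transporter Slc22a18 with 0.52 ± 0.349 (0.711, and 0.0231 with the block). At this probe set, the brighter of Slc22a18, the difference was 0.20 without LIGHT Tg 1, 0.33 without WT 2 and 0.83 without WT 1. The other Slc22a18 probe set had signals of 3562, 3148 and 2809 in LIGHT Tg and of 2179, 1719 and 1706 in WT. Its groups did not overlap, with a difference of 0.77 ± 0.167 (limma adjusted p = 0.1001, and 0.00755 with the block). Kcnq1, Cd81 and Slc22a18 belong to the imprinted cluster next to Igf2, where 3 of 7 tested genes rose with the block and none passed without it. Among the brightest probe sets of these genes, an unadjusted p below 0.05 without the block was found for Kcnq1, Cd81 and Nap1l4. Nap1l4, a histone chaperone, was lower in LIGHT Tg, with a difference of -0.49 and groups that did not overlap.

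Ascl2, a transcription factor of the same cluster, had 1 dim probe set with a difference larger than that of Slc22a2, and it is named after its value was seen. At 1422396_s_at the signals were 32.0, 190.6 and 93.8 in LIGHT Tg and 1.81, 4.8 and 2.37 in WT, with no overlap and a log2 difference of 4.92 ± 0.780. It lies below the level filter, in percentile 7.98 of all probe sets. Over all non-control probe sets the limma adjusted p was 0.0534, and 0.0109 with the block. The difference was 4.15 between the arrays titled 77 and 78 and 5.31 among those titled 30 to 35, and with the offset of 37.5 before log2 it was 1.66. The other Ascl2 probe sets, also dim, had overlapping groups and differences of 1.36 ± 0.845 and 0.60 ± 0.514, and the last of these is the brightest and the one counted above.

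**Figure D5:**
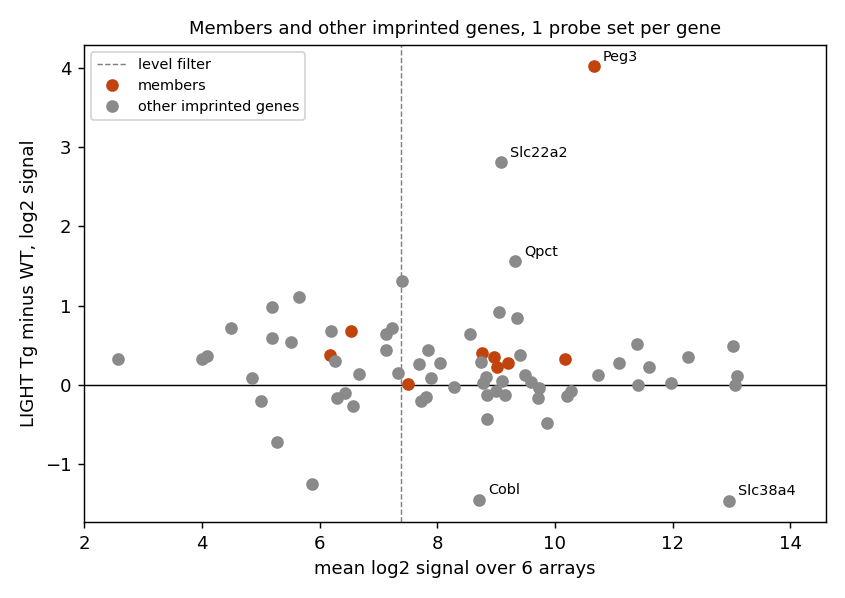
LIGHT Tg minus WT log2 difference against mean log2 signal over the 6 arrays for the 9 measured members and 63 other imprinted genes, the brightest probe set of each gene, with the level filter as a dashed line. Peg3 at 4.02 is the highest point, and the named grey points are Slc22a2, Qpct, Cobl and Slc38a4.

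In the IGF system around Igf2 and Igf2r, 1 gene of 14 tested rose and 13 did not pass. Igfbp2, a circulating IGF binding protein, had signals of 14188, 15345 and 14194 in LIGHT Tg and of 8003, 6098 and 8939 in WT, and it rose by 0.94 ± 0.153 (limma adjusted p = 0.0408). It lost the call with no level filter, with no trend and without any 1 of the 6 arrays, with a limma adjusted p of up to 0.187. With the block Igfbp3 passed too (0.75 ± 0.278, limma adjusted p = 0.0320 with the block), a gene named after its value was seen. Igf1, the IGF that the postnatal liver makes, had 0.21 ± 0.106 (limma adjusted p = 0.548).

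On a list of fetal liver genes and their repressors, 12 genes were measured and 8 tested, and 1 rose. The list also held Alb, which is among the hepatocyte markers, and Aldh1a7. Afp, alpha-fetoprotein, was below the filter with signals of 75.9, 71.3 and 102.8 in LIGHT Tg and of 28.2, 83.1 and 84.9 in WT. Gpc3, a heparan sulphate proteoglycan, had a difference of 0.27 ± 0.324 (limma adjusted p = 0.891). The repressors of Afp, Zhx2 and Zbtb20, had -0.13 ± 0.212 and -0.45 ± 0.151 (limma adjusted p = 0.930 and 0.301). The only gene of this list to pass was Aldh1a7, an aldehyde dehydrogenase that is no marker of the fetal liver, at 1.02 ± 0.094 (limma adjusted p = 0.00563, and 0.0602 without LIGHT Tg 3).

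Markers of other cell types were set beside Peg3. Of 9 stellate cell and fibroblast markers tested none passed in limma (1 had an unadjusted p below 0.05), and the summed signal of the 10 measured was 16214 to 17063 in LIGHT Tg and 15900 to 19095 in WT. Of 9 endothelial markers 2 rose, Vwf by 2.39 ± 0.229 and Lyve1 by 1.24 ± 0.200 (limma adjusted p = 0.00678 and 0.0393), and their sum was 11948 to 14995 in LIGHT Tg against 8824 to 9567 in WT. Vwf lost the call without LIGHT Tg 3 and Lyve1 without LIGHT Tg 2, LIGHT Tg 3 or any WT array, and also with no level filter or no trend. With the title-set block 3 of the 9 rose, the third being Stab2, a scavenger receptor of sinusoids, with 0.75 ± 0.176 (limma adjusted p = 0.125, and 0.0127 with the block). Of 3 bile duct and progenitor markers tested 1 rose, Prom1, by 4.20 ± 0.483 (limma adjusted p = 0.0134), and the call was lost without LIGHT Tg 2, LIGHT Tg 3 or WT 3. Of the 7 markers measured on that list, 5 had positive and 2 negative log2 differences, from -1.05 to 4.20. Krt19, Krt7 and Sox9, also of that list, were below the filter, and the sum of its 7 genes was 3794 to 7589 in LIGHT Tg and 1705 to 7163 in WT. The pair had sums of 7589 in LIGHT Tg and 7163 in WT, and the arrays titled 30 to 35 had 3794 and 4240 in LIGHT Tg and 1705 and 1879 in WT.

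Among 4 lymphocyte markers tested Ighm rose by 3.62 ± 0.208 (limma adjusted p = 0.000821) and carried the summed signal, 5811 to 7586 in LIGHT Tg against 1886 to 2235 in WT, while Cd3e, Cd4 and Cd79a were below the filter. The other 3 tested did not pass. Of the 9 lymphocyte markers measured, 4 had positive and 5 negative log2 differences, with a median of -0.08. No macrophage marker of 8, adipocyte marker of 2 or pancreatic marker of 2 passed, with unadjusted p below 0.05 for 0, 0 and 1 of them. With the block the pancreatic list gave 1 that fell, Cela1. All 6 skeletal muscle markers were below the filter. The part of these cell types in the Peg3 difference was not tested.

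The genes whose log2 signals followed the brightest Peg3 probe set most closely over the 6 arrays, among 19200 probe sets past the filter, were Ski with a Pearson correlation of 0.998, 4933404O12Rik with 0.996, and Slc1a2, Bpgm and Ccdc38 with 0.995 each. These are descriptions over 6 arrays that share the genotype difference and the title sets. Ski, a transcriptional co-repressor, had signals of 1116, 1356 and 1332 in LIGHT Tg and of 488.7, 583.3 and 610.5 in WT, a 2.26-fold level. Ccdc38 had signals of 730.4, 1908 and 2092 in LIGHT Tg against 17.9, 41.7 and 35.9 in WT. Its WT signals were all below the level filter, so that it was compared only through its LIGHT Tg signals. None of the 5 is on the list of imprinted genes used here.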

How the data were processed

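Liver RNA of 6 samples was measured on Affymetrix arrays. The deposited values are MAS5 intensities, 1 per probe set on a linear scale. The MAS5 algorithm is given per the submitters' processing notes, with no version, no target for scaling and no present or absent calls in the sources used here. Trimmed means (2% off each end) of 490.0 to 505.1 point to a shared scaling. Without detection calls a low signal carries no bound, and the number of arrays limits the precision.

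Genes were named from the platform annotation and checked against RefSeq (GRCm38.p6), which matched 34741 of 34945 single-symbol probe sets and changed 0 symbols; 932 probe sets had several symbols and 9160 none. The 64 control probe sets were left out. The 106 signals under 1 were raised to 1 before log2. The genotypes were compared in limma 3.58.1 (R 4.3.3; lmFit, eBayes with a trend), two-sided, over the 22519 probe sets at or above the median mean log2 signal of 7.39, with Benjamini-Hochberg adjustment. Members below this level took their SE from a fit over all 45037 non-control probe sets, which also served the title-set and interaction tests. Lists used the brightest probe set per gene, and 27 of 191 list entries had none. The steps were tested on simulated data, in 20 simulations with 200 of 22519 probe sets changed.

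The members and lists were chosen with earlier results of these data known, so no p-value between genotypes is printed for a single member. For the same reason, the adjusted p of genes on the other lists describe this contrast and are no independent support. Named genes are all members; other imprinted genes past 5% FDR with or without the block; the Peg3 and Dlk1 clusters; list members that passed; and the 5 genes most like Peg3. The sums of a cell type add the brightest probe set of every measured marker on its list. Genes of lists that did not pass are named as examples. Alternatives covered filters, offset, normalization, variance model, array weights, the block, and arrays left out. Figures used matplotlib 3.10.9 (Python 3.11.15).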

Additional observations from a re-analysis of the deposited data

How the results depend on the processing

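The 3 called Peg3 probe sets stayed higher in LIGHT Tg under all 16 alternatives, with log2 differences of 3.65 to 4.22, 3.60 to 3.98 and 4.70 to 6.09, and no other member was called under any of them. With the 75th percentile filter 2 were called, since 1417356_at was not tested. No paired analysis was possible because replicate numbers follow the listing order and the title numbers are not shared between genotypes; the title set served as a block. The count of probe sets called was 264, and it was 148 without the trend, 1992 with array weights, 1457 with the block, 956 in the arrays titled 30 to 35 and 43 to 306 with 1 array left out. Other imprinted genes called numbered 4, 3 with no level filter or no trend, 8 with array weights or the block, and 1 to 4 with 1 array left out. The median difference of the members was 0.35 (0.21 to 0.51 with 1 array left out, 0.17 as the mean of all probe sets). That of the other imprinted genes was 0.12, with 0.17 under array weights, 0.20 in the arrays titled 30 to 35, 0.23 as the mean of all probe sets, and 0.056 to 0.22 with 1 array left out. Member probe sets called between the title sets numbered 4, and 2 after quantile normalization. The cause of these shifts was not tested. The offset for Ascl2 was chosen after seeing the data. The median over all probe sets moved by less than 0.1 under every scaling. Dim probe sets, among them all of Igf2 and Cdkn1c, limit what can be said of those genes.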
